A study of Homo sapiens with 7 samples.

Results

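Long-read sequencing of full-length cDNA lists each RNA isoform with its place in the genome, and most isoforms are assigned to an annotated gene. The loci described here are those that received no Ensembl gene ID. Every isoform whose gene identifier was a chromosome position instead of an Ensembl ID was taken, and isoforms with the same identifier were grouped into a locus. This gave 4323 loci with 10203 isoforms, 2.64% of the 386982 isoforms listed, beside 14294 genes with an ID. The rule itself used no measured level. Every isoform listed had at least 1 control read, however, so control reads decided which isoforms could enter.

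The cells were HUES66, a human embryonic stem cell line, and all 7 libraries are labelled piggyBac, a transposon used to place DNA in the genome. The control library is labelled wild type. The other 6 are labelled as knockdowns of single isoforms of the splicing regulator RBFOX2, which the series title attributes to the RNA-cutting enzyme Cas13d, and they are called by the short code in their titles. The RBFOX2 isoform named for G3 is id.178147 and for G5 id.178149. G11 and G12 carry the names id.178136 and id.178135, while G13 has id.178145 and G14 id.178146. All 7, the control included, received doxycycline at 1 µg/ml, with a time point of 24 h. Each group has 1 library, so no difference between groups could be tested, the spread between cultures is unknown, and every interval given covers counting error only. The labels name no clone.

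The libraries held 16801851 reads (control) to 26678536 reads (G12), totals derived from the scale of the deposited TPM. Levels are in TPM, here the reads of an isoform or locus scaled to the reads of the library, with no term for length. RBFOX2 as a whole stood at 107 TPM in the control and at 39.2% of that in G3, 52.2% in G13, and between 77.3% (G11) and 98.6% (G14) in the rest. Of 8 markers of pluripotent cells, 8 were above 1 TPM in every library, with a summed level of 1618 to 2072 TPM. The sum hides opposite differences. POU5F1 (915 TPM in the control, 377 to 588 elsewhere) and NANOG (10.0 and 3.49 to 5.54) were highest in the control. DPPA4 (745 and 766 to 1002), L1TD1 (18.2 and 24.9 to 41.0) and TDGF1 (37.6 and 43.8 to 59.7) were lowest there. LIN28A, ZFP42 and DNMT3B lay on both sides of the control. The 7 endoderm and mesoderm markers summed to 0.0439 to 0.357 TPM, with 3 at 0 in every library, and the 3 neural markers to 1.12 to 3.03 TPM, with 1 at 0. The 3 fibroblast markers summed to 1.58 TPM (G13) to 30.3 TPM (G3), all of it from 1 of them.

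Genes of higher organisms are usually interrupted by introns, which are cut out of the RNA at splice sites, most often with GT as the first and AG as the last bases of the intron. A minority of coding genes, among them most histone genes, have no intron. Isoform callers compare the chain of introns in a read with that of annotated transcripts, so the introns are what ties a read to a gene.

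The loci turned out to be defined by an intron. The number in a locus identifier was the 1-kb bin of the lowest-coordinate intron start of its isoforms in 9694 of the 9694 isoforms whose introns could be read from their identifiers (95.01% of the 10203). A locus is therefore a bin of intron starts and not a gene: 1831 loci overlapped another of the loci, and the 4323 loci merged into 3276 separate regions. The plus strand held 2222 loci and the minus strand 2091, with 10 on both. Their spans ran from 497 to 311990 bases, with a median of 10440 and quartiles of 4356 and 27363. A single isoform made up 2690 loci, and the most crowded locus held 85.

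The number of introns separated isoforms with and without a gene ID. Of the isoforms with 1 intron, 8569 of 10914 had no gene ID (78.5%, 95% Wilson interval 77.7 to 79.3). With 2 introns it was 1810 of 16300 (11.1%, interval 10.6 to 11.6), and with more introns, or introns that could not be read, 511 of 328075 (0.156%, interval 0.143 to 0.170). Among the 10203 isoforms of the loci, 8010 had 1 intron (78.5%) and 1684 had 2. Within the class of 1 intron, the match to annotation went with the gene ID: the intron was identical to a GENCODE 29 intron in 2312 of 2345 isoforms with an ID (98.6%) and in 299 of 8010 isoforms of the loci (3.73%).

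**Figure D1:**
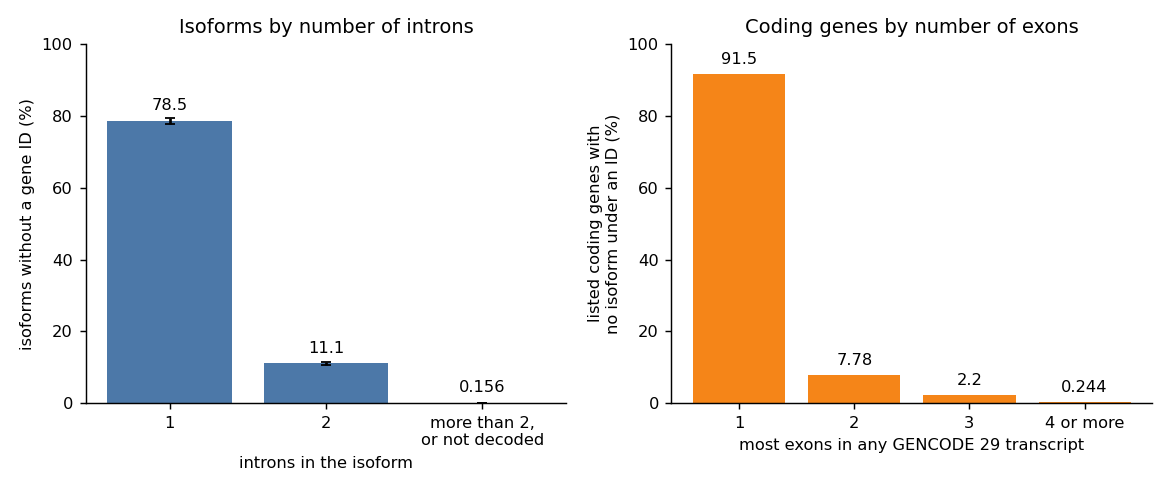
Left, the share of isoforms without a gene ID (percent, vertical axis) by number of introns, with 95% Wilson intervals as error bars. Right, the share of listed coding genes that had no isoform under a gene ID (percent) by the largest number of exons in any GENCODE 29 transcript of the gene. The share is 78.5% with 1 intron and 0.156% with more than 2 or unread introns, and 91.5% for 1-exon genes and 0.244% for genes with 4 or more exons.

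Nearly all loci lay on annotated genes. On the same strand as a GENCODE 29 gene were 4281 loci (99.0%), including all 210 with a mean of at least 1 TPM over the 7 libraries. Antisense to a gene lay 40, of which the highest had a mean of 0.482 TPM, 1 started divergently from a gene, and 1 was intergenic. Where at least 50% of the span had to overlap, 4170 loci remained on the same strand, 49 were antisense, 50 divergent, 6 downstream of a gene and 48 intergenic. Of the 42 loci not on a GENCODE gene's strand, 18 overlapped a RefSeq gene. The most abundant antisense locus, at chr4:56461542-56467578 on the minus strand, overlapped LOC124900706 of RefSeq and had 9 reads in the control and 12, 6, 12, 23, 8 and 3 in G3, G5, G11, G12, G13 and G14, few in each library.

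The genes under the loci numbered 3294, of which 3016 are protein coding. Of these genes, 385 had no isoform under an ID at all, and 771 carried several loci, up to 7. For most, the loci took a small part of the gene's reads. Among the 2649 genes with a total of at least 1 TPM, the median share of reads in isoforms without an ID was 0.139%. It was at least 10% in 152 genes, at least 50% in 52, and 100% in 27. Of listed coding genes annotated with 1 exon, 130 of 142 had isoforms only without an ID (91.5%), against 35 of 450 with 2 exons (7.78%), 16 of 727 with 3 (2.20%) and 31 of 12687 with 4 or more (0.244%). None of the 16043 isoform IDs shared with GENCODE 29 belonged to a transcript of 1 exon.

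The splice letters are shown here for loci that rest on a gap in the read lying inside an annotated exon. Of the genes shown, TSPYL4, UBQLN2 and PCBP1 are annotated with 1 exon. MRFAP1L1 is annotated with 2 and PIGC with 5, and these also have isoforms under their ID, with means of 85.3 and 72.9 TPM. The bases around both ends of such gaps were read from the GENCODE 29 transcripts. Each window below runs 5′ to 3′ along the RNA, with 12 bases of the retained exon and 12 of the gap. For the first set, whose gaps begin with GT and end with AG, the capitals mark the first and last pair of bases of the gap. These are the gaps inside MRFAP1L1 (chr4:6708644-6709225, minus strand, 582 bases), TSPYL4 (chr6:116250419-116252051, minus, 1633 bases), UBQLN2 (chrX:56563741-56564503, plus, 763 bases) and PIGC (chr1:172442831-172443983, minus, 1153 bases).
MRFAP1L1, start of gap: atcggtggtaagGTcggaaactag
MRFAP1L1, end of gap: attgtgctttAGgttcacagctga
TSPYL4, start of gap: gaccagctgctgGTgagtatgaag
TSPYL4, end of gap: tctctgtttcAGcctatgacaaaa
UBQLN2, start of gap: ttcatcacagagGTaccgtgctcc
UBQLN2, end of gap: gctaatccacAGatgcagcaattg
PIGC, start of gap: actctcgggtagGTgggttccgtg
PIGC, end of gap: ctctttttctAGgaacttggctgt

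The next pair shows a gap without GT and AG whose ends share a run of at least 8 identical bases, marked in capitals. It lies in PCBP1 (chr2:70087710-70088156, plus strand, 447 bases).
PCBP1, start of gap: accacgtaacgaGCCCAACTCCcc
PCBP1, end of gap: gggggatatgctGCCCAACTCCac

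The shared run was 10 bases long in PCBP1, counted over at most 12 bases on either side of the gap's ends. Of 1861 such gaps in the loci, 280 had GT and AG (15.0%, interval 13.5 to 16.7) and 84 had GC and AG (4.51%). Annotated introns that lie inside an exon of another transcript, 23358 in all, gave 92.1% GT and AG (interval 91.7 to 92.4) and 3.13% GC and AG. A shared run of at least 8 bases stood at 123 gaps of the loci (6.61%, interval 5.57 to 7.83) and at 232 of the annotated introns (0.993%, interval 0.874 to 1.13), and a run of at least 4 bases at 46.5% and 19.0%. The gaps with more reads were closer to the annotated introns in their letters: GT and AG stood at 21 of the 44 gaps with at least 10 control reads (47.7%, interval 33.8 to 62.1) and at 170 of the 1318 with 1 control read (12.9%, interval 11.2 to 14.8).

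These example gaps differed in level across the libraries as follows. The MRFAP1L1 gap had 224 reads in the control and 315, 376, 281, 319, 311 and 249 in G3, G5, G11, G12, G13 and G14, or 13.3 TPM and 17.6, 14.8, 13.5, 11.96, 13.6 and 11.9 TPM, a narrow range. The PCBP1 gap was scarcer, with 6 reads in the control and 10, 17, 5, 5, 4 and 4 in the same order, too few to order most of the libraries.

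The starts of the loci lay where genes start. A RefSeq promoter window, from 250 bases before to 50 bases after an annotated start (GRCh38.p14), contained the start of 2517 loci (58.2%) and of 164 of the 210 loci with a mean of at least 1 TPM (78.1%). Of 35116 such promoters, 11.5% held the letters TATAAA on either strand, against 3.92% of the 2068 promoters at the start of a locus and 1.30% of the 154 at the start of a locus with at least 1 TPM. The median number of CG dinucleotides was 14 over all promoters and 27 in both groups of locus promoters. All promoters were taken whatever the level of their gene, and those of the listed genes with an ID were not measured apart. Whether the loci differ from those genes in these letters was therefore not tested. The windows of LINC00339 (chr1:22025254-22025553, plus strand) and TMEM11 (chr17:21214112-21214411, minus strand) are shown because isoforms without an ID hold 97.3% and 48.8% of these genes' reads. Capitals run from the first base of the locus, which lies 15 bases before the RefSeq start of LINC00339 and 9 before that of TMEM11.
LINC00339: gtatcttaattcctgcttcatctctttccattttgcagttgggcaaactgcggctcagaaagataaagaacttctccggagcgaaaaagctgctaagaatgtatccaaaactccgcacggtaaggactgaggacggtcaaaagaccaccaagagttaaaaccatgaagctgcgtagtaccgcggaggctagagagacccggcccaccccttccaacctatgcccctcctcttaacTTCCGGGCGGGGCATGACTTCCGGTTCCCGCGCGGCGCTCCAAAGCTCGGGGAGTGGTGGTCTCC
TMEM11: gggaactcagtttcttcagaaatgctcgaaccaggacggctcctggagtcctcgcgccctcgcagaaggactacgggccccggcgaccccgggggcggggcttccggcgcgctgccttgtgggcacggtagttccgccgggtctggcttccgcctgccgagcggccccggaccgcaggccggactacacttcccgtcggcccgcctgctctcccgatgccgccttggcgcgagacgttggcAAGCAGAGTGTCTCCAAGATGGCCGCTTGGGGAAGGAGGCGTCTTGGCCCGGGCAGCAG

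Neither window holds TATAAA, and they hold 18 and 33 CG dinucleotides.

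The abundance of the loci was concentrated in few of them. A mean of at least 0.5 TPM was reached by 375 loci, of at least 1 TPM by 210, of at least 5 TPM by 39 and of at least 10 TPM by 14. The 210 loci held 71.3% of the summed level of all loci and the 20 most abundant 29.2%. At the other end, 2043 loci had 1 read in the control, and 2168 had no read in any G library. Reads in all 7 libraries were found for 745.

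The most abundant locus lay over HNRNPH2, which encodes an RNA-binding regulator of splicing, at chrX:101408213-101414143 on the plus strand. Its main isoform removed 1 intron, chrX:101408308-101411935, that is not in GENCODE 29 as such but has at least 1 annotated edge. It stood at 32.7 TPM in the control and at 31.9, 40.9, 47.1, 37.2, 41.8 and 55.0 TPM in G3, G5, G11, G12, G13 and G14. G14 was the highest, at 168% of the control (counting interval 152 to 186), and G3 did not differ from it beyond counting error (97.6%, interval 86.6 to 110). The share of HNRNPH2 reads in this locus ranged from 14.05% to 15.5% over the 7 libraries, and the gene's isoforms with an ID stood at 182 TPM in the control, and elsewhere at 174 to 307 TPM.

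TMEM11, a protein of the mitochondrial inner membrane, had its locus at chr17:21197949-21214170 on the minus strand. The level was 60.5 TPM in the control and 42.6, 35.9, 30.7, 38.8, 32.8 and 19.6 TPM in the G libraries in the order above, so the control was the highest of the 7 and G14 the lowest, at 32.4% (interval 28.9 to 36.4). The isoforms of TMEM11 with an ID stood at 83.9 TPM in the control and at 37.4, 29.5, 30.1, 37.7, 36.6 and 18.9 TPM, also with the control highest and G14 lowest. The main isoform of the locus has 2 introns, both identical to annotated introns.

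LINC00339 is a long non-coding RNA at chr1:22025489-22031224 on the plus strand, and nearly all of its reads lay in isoforms without an ID. The locus stood at 49.1 TPM in the control and at 43.5, 20.5, 17.7, 24.0, 25.1 and 11.6 TPM in G3, G5, G11, G12, G13 and G14, while its isoforms under the gene ID were at 0.384 to 1.25 TPM. G3 was closest to the control (88.7%, interval 80.3 to 97.9) and G14 farthest (23.7%, interval 20.5 to 27.4). The reads without an ID were 93.6 to 97.9% of the gene's reads in the 7 libraries.

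ZFHX2-AS1, an antisense non-coding RNA, had no isoform under its ID. The locus assigned to it by exon overlap, at chr14:23555998-23560778 on the plus strand, stood at 12.7 TPM in the control and at 6.72, 7.70, 7.49, 9.48, 10.5 and 5.59 TPM in the G libraries. The control was the highest of the 7. The locus also overlaps the coding gene THTPA, and which gene its reads belong to was not tested. The pseudogene TPM3P9, with 37 isoforms in a locus at chr19:53431974-53461861 on the plus strand, had 60.7% of its reads in isoforms without an ID. The locus stood at 18.3 TPM in the control and at 15.6, 20.5, 26.2, 29.05, 32.8 and 31.3 TPM, with G3 lowest and G13 highest (180% of the control, interval 157 to 206). The start of this locus lies in the RefSeq promoter window of ZNF761, a zinc-finger gene on the same strand. Reads of a pseudogene can be shared with its parent gene, so these levels are uncertain.

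Zinc-finger genes were among the leading loci. ZNF138, at chr7:64794388-64833682 on the plus strand, stood at 16.1 TPM in the control and 19.4, 19.0, 21.3, 23.7, 22.2 and 31.2 TPM in the G libraries, the control being the lowest of the 7. The locus held 59.5% of the reads of ZNF138. The locus over ZNF134 was flatter, with 8.81 TPM in the control and 9.86, 12.1, 11.9, 8.28, 8.38 and 9.74 TPM, and G12 and G13 below the control by less than counting error.

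Loci over genes of transcription and signalling included POLR2D, a subunit of RNA polymerase II, at 16.01 TPM in the control and 19.9, 21.6, 20.1, 22.04, 18.8 and 26.7 TPM, again with the control lowest. PJA1, a ubiquitin ligase, had 17.5 TPM in the control and 21.6, 23.4, 18.1, 15.5, 14.6 and 21.1 TPM, on both sides of the control. LRRN1, a leucine-rich-repeat membrane protein, stood at 18.7 TPM in the control and 23.0, 21.2, 21.5, 20.3, 18.6 and 38.0 TPM, where G14 stood apart from the other 6 (203% of the control, interval 178 to 232). The isoforms of LRRN1 with an ID were also highest in G14, at 559 TPM against 228 TPM in the control.

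MLLT11 had 12.1 TPM in the control and 8.85, 14.3, 19.6, 18.4, 19.2 and 17.5 TPM in the G libraries, with G3 the lowest. CHST12, a sulfotransferase acting on chondroitin, had 17.4 TPM in the control and 21.1, 17.2, 16.2, 11.4, 10.6 and 10.8 TPM, with G12, G13 and G14 at 61.1 to 65.4% of the control. CLDN6, the tight-junction protein claudin 6, had 18.0 TPM in the control and 17.9, 11.8, 9.65, 11.3, 10.6 and 4.77 TPM, with G14 at 26.6% (interval 21.0 to 33.4). Isoforms without an ID were 1.11% of the reads of CLDN6 and 2.13% of those of MLLT11.

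The other 7 of the 20 most abundant loci ranged from 4.58 to 18.2 TPM over all libraries. MRPL36, a mitochondrial ribosomal protein, SDHAF3, an assembly factor of succinate dehydrogenase, and MARCKSL1 had the control as their highest library, with G14 lowest at 45.3%, 54.5% and 38.5% of the control. RHNO1, which acts in the DNA damage checkpoint, differed from the control beyond counting error only in G13 (131%, interval 109 to 158). DCAF16, a substrate receptor of a ubiquitin ligase, was highest in G3 (150%) and lowest in G13 (52.5%), SETMAR was lowest in G3 (76.8%) and highest in G13 (140%), and MRFAP1L1 was highest in G3 (135%) and lowest in G14 (89.4%).

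**Figure D2:**
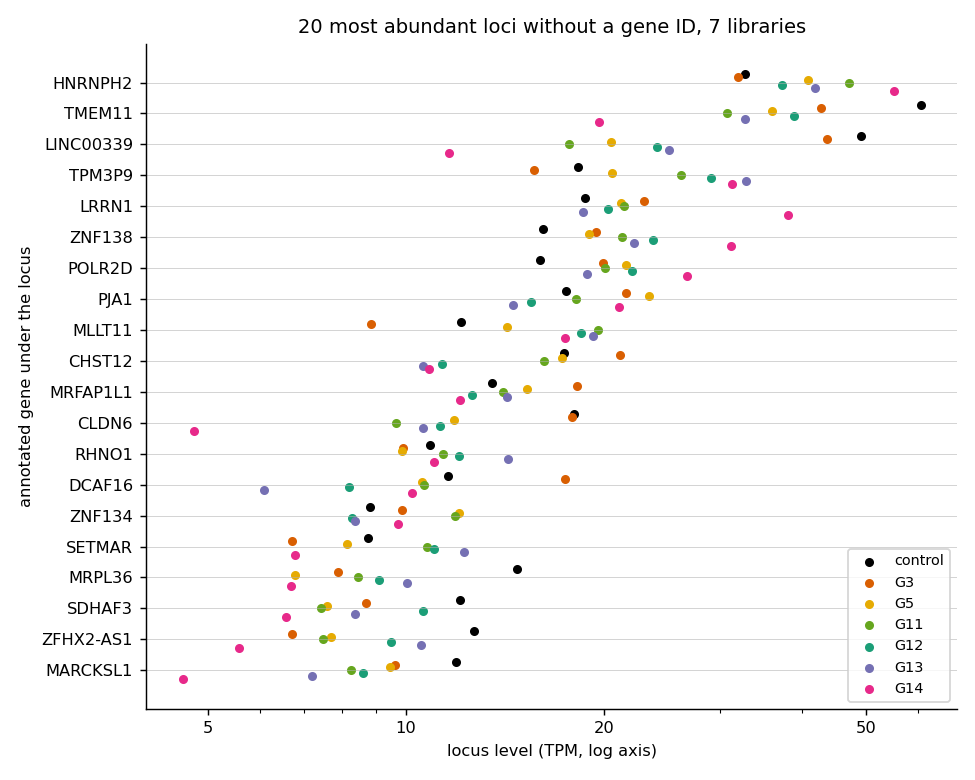
Level in TPM (horizontal log axis) of the 20 loci with the highest mean, named by the annotated gene under them, with 1 point for each of the 7 libraries. The control (black) is the highest point for TMEM11 (60.5 TPM) and LINC00339 (49.1 TPM) and the lowest for ZNF138 (16.1 TPM) and POLR2D (16.01 TPM).

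The 3 longest loci among those with at least 1 TPM spanned 121262 to 131275 bases. SEMA6A, a semaphorin that guides axons, had 33 isoforms in a locus of 131275 bases (chr5:116443555-116574829, minus strand), with 5.12 TPM in the control and 1.40, 2.40, 3.89, 4.80, 4.47 and 2.72 TPM in the G libraries. Its main isoform, 23.1% of the locus, had a gap of 128315 bases with neither edge annotated. Isoforms without an ID were 1.93% of the gene's reads. Those with an ID stood at 178 TPM in the control and at 137 to 234 TPM elsewhere. The isoforms of the locus are listed through a control read, and the part of that listing in the differences was not tested. FIGN, which severs microtubules, had 1 isoform over 130111 bases with an annotated intron, and its levels of 0.658 to 1.54 TPM did not differ from the control's 1.01 TPM beyond counting error in any library. The orphan receptor GPR176 stood at 3.93 TPM in the control, and elsewhere at 2.46 to 4.13 TPM, and differed beyond counting error only in G13 (62.5%, interval 43.0 to 90.7).

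The loci of 8 coding genes annotated with 1 exon are given next. They had a mean of at least 2 TPM and are a choice made with their levels known, and none of them had an isoform under its ID. SOX11, a further such gene with a locus mean of 2.18 TPM, is not in the figure. Its locus stood at 5.18 TPM in the control and at 0.877 to 2.80 TPM elsewhere. TSPYL4 had 4.17 TPM in the control and 5.55, 6.33, 6.05, 4.65, 4.12 and 7.35 TPM in the G libraries, nearly all from the GT and AG gap shown above. UBQLN2, a ubiquitin-binding shuttle protein, rested on its GT and AG gap alone, with 1.73 TPM in the control and 1.51, 2.12, 2.93, 2.25, 2.15 and 4.11 TPM. G14 was the highest library for both.

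IRF2BPL varied more widely. This locus, at chr14:77024541-77028708 on the minus strand, stood at 6.31 TPM in the control and at 17.9, 4.95, 1.01, 0.562, 0.132 and 0.764 TPM in G3, G5, G11, G12, G13 and G14, with G3 at 284% of the control (interval 227 to 357) and G13 at 2.09% (interval 0.423 to 6.26). RNF26, a ubiquitin ligase of the endoplasmic reticulum, stood at 9.05 TPM in the control and 3.25, 6.72, 2.26, 1.39, 0.746 and 1.05 TPM, the control being the highest. PCBP1, which binds cytosine-rich RNA, had 85 isoforms and stood at 8.57 TPM in the control and 2.86, 2.28, 2.11, 1.80, 1.36 and 0.907 TPM, again with the control highest. Its main isoform, with the gap shown above, did not have the control highest, though its reads were few. It stood at 0.357 TPM in the control, 0.560 TPM in G3, 0.668 TPM in G5 and 0.175 to 0.240 TPM elsewhere. All isoforms of the loci over these genes and SOX11 are listed through a control read. The part of that listing in the differences was not tested.

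EXOSC6, a subunit of the RNA exosome, and H1F0, the linker histone H1.0, had a different pattern, with G3 the lowest library. EXOSC6 had 5.83 TPM in the control and 0.728, 4.05, 5.86, 6.41, 5.22 and 4.20 TPM, so G3 was at 12.5% (interval 6.42 to 22.4) and G11 and G12 at the control's level. The larger H1F0 locus had 5.24 TPM in the control and 0.896, 2.83, 4.13, 3.37, 5.66 and 4.06 TPM, and the smaller 3.75 TPM and 0.672, 1.14, 2.26, 2.21, 2.90 and 1.86 TPM. HEXIM1, an inhibitor of the elongation factor P-TEFb, ranged from 2.02 TPM (G3) to 4.61 TPM (G11), with 3.57 TPM in the control. These levels are of reads with a gap and are not a measure of the expression of the genes.

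**Figure D3:**
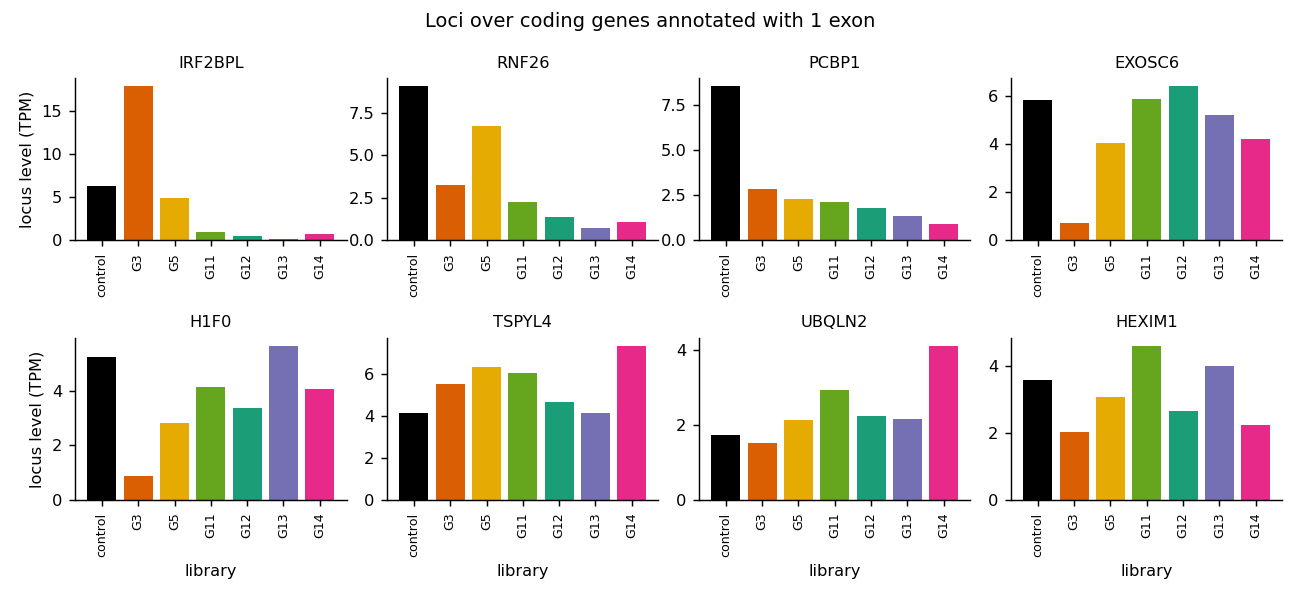
Level in TPM (vertical axis, from 0, a scale of its own in each panel) of the most abundant locus over 8 coding genes annotated with 1 exon, in the 7 libraries. IRF2BPL is highest in G3 (17.9 TPM), RNF26 and PCBP1 in the control (9.05 and 8.57 TPM), EXOSC6 and H1F0 are lowest in G3 (0.728 and 0.896 TPM), and TSPYL4 and UBQLN2 are highest in G14 (7.35 and 4.11 TPM).

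Summed over all loci, the control held the largest share of reads. It was 0.182% of the control library (30594 reads, interval 0.180 to 0.184), 0.114% of G3, 0.108 to 0.110% of G5, G11, G12 and G13, and 0.103% of G14. Every isoform listed had at least 1 control read, and 1549 loci had 1 control read and none elsewhere. The part of that listing in the difference was not tested. Among the 378 isoforms with at least 10 control reads, the share was 0.0907% in the control and 0.0719 to 0.0788% in the G libraries. Among the 498 isoforms with at least 10 reads in G12 it was 0.0910% in the control and 0.0791 to 0.0820% in the 5 other G libraries, at 86.9 to 90.1% of the control.

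The kind of intron went with how far the G libraries lay below the control. The 8010 isoforms with 1 intron divided into 299 with an annotated intron, 1982 with at least 1 annotated edge, 1881 with a gap inside an annotated exon and 3810 with neither edge annotated, besides 37 inside an exon of the other strand and 1 at an annotated intron of the other strand. The summed level of isoforms with an annotated intron was 289 TPM in the control, with 250 to 294 TPM elsewhere (86.5 to 101% of the control). Those with at least 1 annotated edge came to 607 TPM and 396 to 457 TPM (65.3 to 75.3%), gaps inside an exon to 237 TPM and 104 to 122 TPM (43.7 to 51.5%), and those with neither edge annotated to 350 TPM and 78.9 to 92.6 TPM (22.5 to 26.4%).

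Much of this order was shared with the number of control reads. Of the isoforms with neither edge annotated 77.8% had a single control read, against 31.8% of those with an annotated intron. Among isoforms with at least 10 control reads, the G libraries were at 87.2 to 101% of the control for annotated introns, 70.4 to 82.7% for 1 or both edges annotated, 80.9 to 94.2% for gaps inside an exon and 48.0 to 69.7% for neither edge. Among isoforms with at least 10 reads in G12, where the choice used a G library, the 5 other G libraries were at 90.04 to 102%, 77.2 to 85.8%, 84.7 to 111% and 58.2 to 107% of the control. In that choice the classes overlapped, and the class with neither edge annotated was near the control in G11 (96.5%), G13 (107%) and G14 (98.5%), and below it in G3 (58.2%) and G5 (83.7%).

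**Figure D4:**
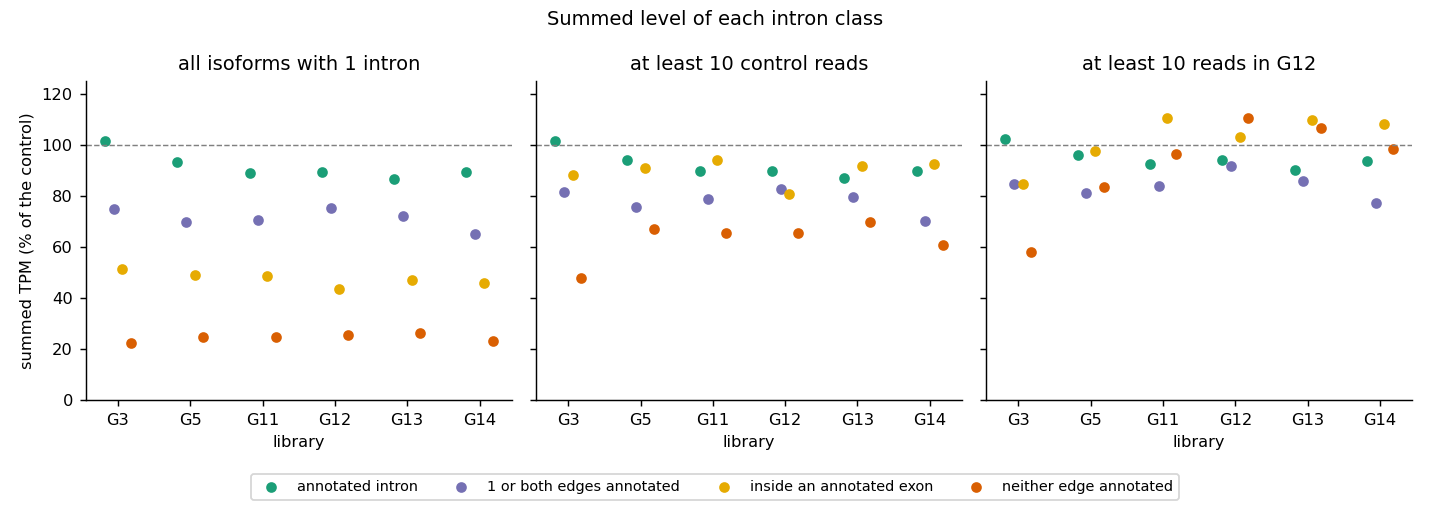
Summed TPM of isoforms with 1 intron as a percent of the control (vertical axis) in the 6 G libraries, by class of intron, for all isoforms (left), those with at least 10 control reads (middle) and those with at least 10 reads in G12 (right, where the G12 points used the choosing library). The dashed line is the control. The class with neither edge annotated lies at 22.5 to 26.4% on the left and at 58.2 to 107% on the right, G12 aside.

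The splice letters divided the gaps inside exons in the same way. Gaps with GT and AG came to 64.8 TPM for the control and to between 45.8 and 54.5 TPM for the others (70.7 to 84.1%), and those with other letters and no shared run of 8 bases to 157 TPM and 51.5 to 62.4 TPM (32.7 to 39.6%). Gaps with a shared run of 8 bases or more and no GT and AG came to 12.2 TPM and 3.42 to 5.77 TPM (28.0 to 47.3%). Their range overlapped that of the other letters. The 3 classes held 280, 1463 and 118 isoforms in this order, of which 21, 22 and 1 had at least 10 control reads. The number of control reads thus differs between them as well. Its part in the difference was not tested.

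Locus by locus, the G libraries were compared with the control on log2(TPM + 0.5), which understates the change of low loci, for the 210 loci with a mean of at least 1 TPM. A locus can pass that filter through a high control value alone. Loci at least 2-fold lower than the control numbered 31 (14.8%) for G3, where the same call took 5.36% of all 10494 genes and loci with at least 1 TPM. For G5 it was 34 loci (16.2%, background 10.3%) and for G11 also 34 (background 12.8%). G12 had 22 such loci (10.5%, background 11.8%), G13 had 35 (16.7%, background 18.6%) and G14 had 53 (25.2%, background 20.8%). The count in G3 was thus above the background by the widest margin, and those in G12 and G13 were slightly below it. This depended on the setting. With a pseudocount of 0.1 TPM, G12 was at 14.3% (background 13.6%) and G13 at 21.9% (background 20.6%). The libraries above the background numbered 6 with that pseudocount or at 3-fold, 3 with a pseudocount of 1 TPM and 0 with no filter. With the median of the other 6 libraries as the reference in place of the control, the lower counts were 13, 1, 1, 4, 13 and 10 (0.476 to 6.19% of the loci, background 0.114 to 10.2%). At least 2-fold higher were 1 locus in G3 (the IRF2BPL locus), 4 in G13, 6 in G14 and none in the other 3, where the background took 2.49% (G3), 0.496% (G5), 0.677% (G11), 0.524% (G12), 1.01% (G13) and 3.53% (G14).

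For G3, G5, G11, G12, G13 and G14 in turn, the median log2 ratio of the 210 loci was -0.20, -0.18, -0.25, -0.18, -0.29 and -0.32, beside 0.10, 0.08, -0.11, -0.23, -0.29 and -0.19 over all features. Rescaled by the median ratio of the annotated genes, which moves each library by that much, the median of the loci was above the control in G12 (0.05) and G13 (0.0015) and stayed below it in the other 4. Below the control in each of the 6 were 72 loci (34.3%, background 22.7%) and higher in all 6 were 13 (6.19%, background 17.5%). Without G3 the count higher in all the others was 25, and without G13 it was 22. The 6 comparisons share the control library, so a single high or low control value moves all of them. No locus was at least 2-fold higher in all 6 (background 0.162%), 7 were at least 2-fold lower in all 6 (3.33%, background 1%), and 121 were within 2-fold everywhere (57.6%, background 65.5%).

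**Figure D5:**
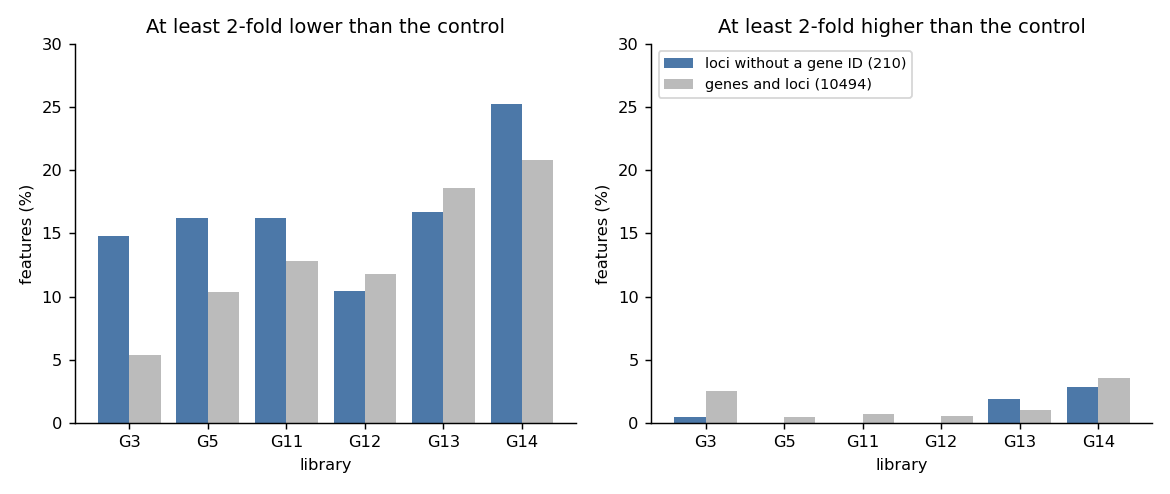
Share (percent, vertical axis) of the 210 loci with a mean of at least 1 TPM, and of all 10494 genes and loci past that mean, that were at least 2-fold lower (left) or higher (right) than the control in each G library. The lower shares of the loci run from 10.5% (G12) to 25.2% (G14) and those of all features from 5.36% (G3) to 20.8% (G14).

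Among loci with a mean of at least 1 TPM that lay on the same side of the control in all 6 G libraries, the largest median differences below it were at IER2, an immediate-early gene, and at MT-CYB, the mitochondrial gene for cytochrome b. The IER2 locus at chr19:13153015-13154902 on the plus strand, with 67 isoforms, stood at 6.96 TPM in the control and 2.97, 1.73, 0.816, 0.262, 0.0439 and 0.191 TPM in the G libraries. A second locus assigned to IER2 by exon overlap, with 71 isoforms, stood at 6.43 TPM and 3.03, 1.73, 1.30, 0.900, 0.702 and 0.430 TPM. The gap of its main isoform, which made up 22.5% of the locus, is identical to an intron annotated on the other strand. Which gene the reads of that isoform belong to was not tested. The isoforms of IER2 under its ID were level by comparison, at 3.69 TPM in the control, and elsewhere at 2.98 to 4.82 TPM, so the share of IER2 reads without an ID went from 79.6% in the control to 26.8% in G14.

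The MT-CYB locus, at chrM:14747-15936 on the plus strand, spread 61 isoforms over a gene with no intron. It stood at 6.01 TPM in the control (101 reads) and at 0.616, 0.864, 0.816, 0.187, 0.877 and 0.239 TPM in the G libraries, where 5 to 22 reads were found. All 6 were below 1 TPM, so the locus passed the filter of a mean of at least 1 TPM only through the control. Counting intervals do not cover that choice. Many isoforms with few reads each make up these 3 loci, with the main isoform at 15.6%, 22.5% and 9.40% of the locus, and each isoform is listed because it had a control read. The part of that choice in the differences was not tested.

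By the same choice, the largest median differences above the control were smaller. GPR19, an orphan receptor, had 0.595 TPM in the control (10 reads) and 1.01, 1.49, 1.10, 1.24, 1.71 and 1.34 TPM in the G libraries, with intervals that include the control's level in G3 and G11. GPR50, a receptor related to those for melatonin, had 0.714 TPM in the control and 0.840, 0.786, 1.20, 1.76, 1.62 and 1.62 TPM, clear of counting error in G12, G13 and G14. METTL18, a histidine methyltransferase, had 6.07 TPM in the control and 6.16, 10.0, 9.02, 7.83, 9.34 and 10.4 TPM, above the control beyond counting error in all but G3.

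Locus levels were set beside the rest of the same gene for 156 genes that had both. These are not all such genes. They were kept by a filter on the level of the isoforms without an ID, out of 3294 genes under the loci, of which 385 had no isoform under an ID. In the same order of libraries, the median log2 ratio of the isoforms without an ID was -0.21, -0.24, -0.24, -0.21, -0.33 and -0.33, and that of the isoforms with an ID 0.10, 0.09, -0.05, -0.09, -0.15 and -0.19. The median difference within a gene was -0.23 in G3 and -0.07 to -0.10 in the other 5. Both kinds of isoform lay on the same side of the control in 88 genes in G3 and in 105 to 116 in the others. Of the 156 genes, the isoforms without an ID were at least 2-fold lower than those with an ID in 8 (G12) to 22 (G3). They were at least 2-fold higher in 1 to 7. No background share was computed for these counts. All isoforms are listed through a control read, and the part of that listing in these differences was not tested.

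The base composition of the genes moved with these ratios. Across the 210 loci, Spearman's rho between the GC content of the annotated transcript and the log2 ratio was -0.11 in G3, -0.33 in G5 and between -0.39 (G12) and -0.43 (G14) in the remaining libraries. In G14 the 105 loci richer in GC had a median log2 ratio of -0.66 and the other 105 of -0.07. No such correlation over all genes and loci is given here, so whether the relation is particular to the loci was not tested. The loci share libraries and the control, and the part of base composition in the differences was not tested.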

How the data were processed

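The deposited table lists full-length read counts per isoform and library, with TPM that the authors computed from them. Count divided by library total gave the deposited TPM to within 0.0102 TPM. Reads were aligned with minimap2 2.17 to GRCh38, per the submitters' processing notes. The isoform caller is not given in the sources used here. Per the labels' protocols, cDNA from polyA RNA was joined in arrays of 8 and sequenced on a PacBio instrument.

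Rows without an Ensembl gene ID were grouped by identifier. A missing count was read as 0, and 6 loci (687 isoforms) over 2 regions are not reported here. Isoform identifiers are hashes of intron ends, from which 1 or 2 introns could be recovered. Tested on simulated isoforms, this recovered every chain of 1 or 2 introns and returned no wrong one. Introns and positions were compared with GENCODE 29 and promoters were taken from RefSeq. Reads of the loci were summed, and ratios are log2(TPM + 0.5) differences to the control at a mean of at least 1 TPM. Intervals are 95% Wilson for shares, and for ratios of 2 libraries exact binomial intervals of their reads. PCR reads without molecular identifiers are not independent molecules, so they cover counting error only.

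Named loci are the 20 most abundant, the 3 with the largest median difference in each direction among those with the same direction in all 6, and the 3 longest. The planned comparison of locus starts with ESRG and LINC-ROR was not run. Members and lists were chosen with earlier results of these data known. Python 3.11.15 with pandas 2.3.3, numpy 2.4.6 and scipy 1.17.1 was used.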

Additional observations from a re-analysis of the deposited data

Results flagged for a closer look

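The locus over IRF2BPL was the only one of the 210 loci with a mean of at least 1 TPM that was at least 2-fold above the control in 1 G library and at least 2-fold below it in another. The log2 ratio was 1.44 in G3 and -3.43 in G13. With 1 library per group, the difference between G3 and G13 was not tested.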

How the results depend on the processing

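With 1 library per group, there is no check against replicates, and only isoforms seen in the control are listed. No paired analysis was possible because each group has 1 library. The shares of adenine-rich 3′ ends, polyadenylation signals and repeats were not run, since no genome sequence was used here, and no locus with a mean of at least 1 TPM remains once those on a gene's strand are left out.

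The share of control reads in the loci was 0.182%, 0.000518% without the loci on a gene's strand, 0.156% without the 10 most abundant, and, chosen after seeing the data, 0.0907% and 0.0910% for isoforms with at least 10 reads in the control and in G12. The median G library was at 59.5% of the control, and at 29.3%, 54.2%, 83.0% and 89.3% under those settings. Where isoforms were chosen on G12 reads, here and next, the median is over the 5 other G libraries. For isoforms with at least 10 control reads and at least 10 G12 reads, also chosen after seeing the data, summed TPM in the median G library was 79.2% and 83.7% of the control with at least 1 annotated edge, 91.5% and 108% inside an exon, and 65.5% and 96.5% with neither edge. The share of loci on a gene's strand was 100% at a mean of at least 1 TPM.

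Counts at least 2-fold lower in G3, G5, G11, G12, G13 and G14 were 54, 58, 57, 47, 62 and 86 at a mean of at least 0.5 TPM, 15, 18, 21, 10, 17 and 30 at 2 TPM, and 137, 144, 150, 128, 163 and 189 with no filter. At 1.5-fold they were 66, 70, 68, 55, 72 and 82, at 3-fold 13, 12, 12, 11, 17 and 23, and against the median of the other 6 libraries 13, 1, 1, 4, 13 and 10. Rescaling gave 38, 44, 28, 14, 22 and 39. The loci tested numbered 375 at 0.5 TPM, 119 at 2 TPM, 4323 with no filter and 210 elsewhere. As shares, with those of all genes and loci under the same setting behind them, these were 12.5 to 22.9% (5.51 to 21.1%) at 0.5 TPM, 8.40 to 25.2% (5.19 to 20.1%) at 2 TPM and 2.96 to 4.37% (4.18 to 14.6%) with no filter. They were 26.2 to 39.0% (13.5 to 34.1%) at 1.5-fold, 5.24 to 10.95% (0.467 to 8.40%) at 3-fold, 0.476 to 6.19% (0.114 to 10.2%) against the other 6 and 6.67 to 21.0% (7.01 to 16.1%) after rescaling.

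Counts at least 2-fold higher, in the same order, were 3, 3, 2, 2, 6 and 12 with a pseudocount of 0.1 TPM, 3, 1, 2, 1, 5 and 7 at 0.5 TPM, 4, 3, 3, 1, 6 and 9 with no filter, 9, 5, 13, 6, 13 and 25 at 1.5-fold, and 0 in each at 3-fold. They were 1 in G13 and 3 in G14 with a pseudocount of 1 TPM, 0 in G13 at 2 TPM, 2, 2, 8 and 11 in G11 to G14 after rescaling, and 8, 4, 2 and 2 in G3, G5, G13 and G14 against the median of the other 6 libraries. Of all genes and loci, 0.734 to 4.06% were higher with a pseudocount of 0.1 TPM, 0.400 to 3.12% with 1 TPM, 0.478 to 3.36% at 0.5 TPM, 0.495 to 3.68% at 2 TPM and 0.306 to 2.09% with no filter. The share was 3.63 to 13.7% at 1.5-fold, 0.0858 to 0.410% at 3-fold, 0.410 to 6.95% after rescaling and 0 to 11.5% against the other 6. The higher share of the loci was above that of all genes and loci in 1 library in the main setting. With a pseudocount of 0.1 TPM it was above in 5, and with 1 TPM in 0.

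Median log2 ratios were -0.16 in G13 and G14 with no filter, 0.053 in G12, 0.0015 in G13 and -0.12 in G14 after rescaling, and -0.039, -0.038, -0.022, -0.029, -0.0019 and -0.12 against the median of the other 6. Leaving out each G library gave 74 to 82 loci lower and 13 to 25 higher in all the others. The median log2 ratio of the GPR176 locus turned from -0.11 to 0.0071 after rescaling. The causes were not tested.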
